A study of Homo sapiens with 36 samples.

Results

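The 9 genes described here encode the regulators of the 2 arms of the unfolded protein response that run beside the PERK kinase, and of the related membrane-bound factors. They are ERN1 (IRE1), XBP1, ATF6, ATF6B, MBTPS1, MBTPS2, CREB3, CREB3L1 and CREB3L2. They were found by gene symbol among the 57665 gene identifiers of the deposited tables, taking the row with the largest total count where a symbol recurred. All 9 were among the 19043 genes that passed the filter on low counts.

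The libraries came from U2OS, a human osteosarcoma cell line, stably carrying Dmr-PERK, in which the kinase domain of mouse PERK is joined to a DmrB dimerization domain. The ligand AP20187, the dimerizer, brings the fusion proteins together and switches the kinase on, so that eIF2alpha is phosphorylated without a stressor being applied. Both genotypes, WT and ATF4KO, carry this construct, and each was sampled untreated at 0 h and after 2, 4, 8, 16 and 24 h with dimerizer. There were 3 wells in each of the 12 groups, 36 libraries in all, and none was an untreated well of a later time. In a change against 0 h, dimerizer and time in culture therefore cannot be told apart. No source used here says whether each genotype is a single clone, and the wells of a group share a cell line and a plate format, so that p-values measure the spread between wells.

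IRE1 is a kinase and ribonuclease of the endoplasmic reticulum (ER) membrane that cuts an internal stretch out of XBP1 mRNA. The shortened mRNA encodes the active transcription factor XBP1s. ATF6 and ATF6B are ER membrane proteins that travel to the Golgi, where the site-1 protease (MBTPS1) and then the site-2 protease (MBTPS2) release their transcription factor domains. CREB3, CREB3L1 and CREB3L2 are released by the same pair of proteases, and ATF6 is known to raise XBP1 transcription through the ER stress response element. PERK acts on translation instead, and ATF4 is the transcription factor whose translation it increases.

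The site that IRE1 cuts is shown because it marks what these data cannot separate. In the longest protein-coding XBP1 transcript model of GENCODE 29 (XBP1-201), a CNGCAG pair 26 bases apart was found once, and the 26 bases that are removed are in capitals below. Bases 549 to 610 of the transcript are given, first before and then after removal.
XBP1 unspliced: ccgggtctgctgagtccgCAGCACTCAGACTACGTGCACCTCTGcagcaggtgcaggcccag
XBP1 after removal: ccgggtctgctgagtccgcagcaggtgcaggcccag
Of the 7 annotated XBP1 transcripts, 4 hold the unspliced site and 2 the joined ends. The deposited counts sum them by gene, so every XBP1 value below is total XBP1 mRNA, and the share processed by IRE1 was not analysed here.

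Promoter windows from RefSeq (GRCh38.p14, 250 bases before to 50 after an annotated start) were found for 9 of 9 members, 11 windows in all. They were searched on both strands for 5 motifs, allowing overlaps between them. The ER stress response element, ERSE (CCAAT and CCACG separated by 9 bases of any kind), bound by ATF6 and XBP1s with NF-Y, was in 27 of 35116 windows of all genes (0.0769%). Among the members only the XBP1 window held it, 52 bases before the start. The windows of HSPA5, which encodes the chaperone BiP, and HERPUD1, an ER-associated degradation factor, are shown beside it because both genes are described below. HERPUD1 held the shorter ERSE-II (ATTGG and CCACG separated by 1 base), present in 19 windows (0.0541%). The CREB3L2 window held the cyclic AMP response element CRE (TGACGTCA), which was in 649 windows (1.85%). The conserved letters of each motif are in capitals, and the 4 stretches are on the strand of the gene.
XBP1, chr22:28800583-28800641, minus strand: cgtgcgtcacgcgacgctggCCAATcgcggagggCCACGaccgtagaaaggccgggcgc
HSPA5, chr9:125241371-125241429, minus strand: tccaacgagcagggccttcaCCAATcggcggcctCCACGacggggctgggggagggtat
HERPUD1, chr16:56932005-56932055, plus strand: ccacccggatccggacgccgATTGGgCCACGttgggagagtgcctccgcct
CREB3L2, chr7:138002238-138002285, minus strand: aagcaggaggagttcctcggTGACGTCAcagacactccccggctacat
The C/EBP-ATF element CARE (TGATGNAA), through which ATF4 acts with C/EBP proteins, was in 1270 windows (3.62%), and among the members only in a second window of CREB3L2. The HERPUD1 window also held a CARE, 176 to 169 bases before the start and outside the stretch shown. The unfolded protein response element UPRE (TGACGTGG) was in 256 windows (0.729%) and in none of the members'. A match shows only that these letters are in the window.

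Totals per library ran from 8608783 to 16265056 counts, and each member had at least 69 counts (CREB3L1) in every library. Levels are CPM, the share of a library total that a gene takes, with the total scaled by trimmed mean of M values (TMM). Changes are log2 fold changes ± SE from edgeR's quasi-likelihood test over all 36 libraries, called at a Benjamini-Hochberg adjusted p under 0.05 over the 19043 genes. All 8 mesenchymal markers passed the filter (summed level 2432 to 6104 CPM), with VIM, SPARC and COL1A1 abundant but COL1A2 and TWIST2 at medians of 0.348 and 0.674 CPM. Epithelial markers summed to 3.89 to 14.3 CPM, and blood, endothelial and liver markers to at most 2.54. ATF4 mRNA stood at 318 ± 7.29 CPM in untreated WT and 266 ± 7.47 in untreated ATF4KO (SD, n = 3) and rose in both with dimerizer, so gene-level counts do not show the disrupted allele. The count column of each of the other 33 libraries correlated best with its own deposited TPM column (TPM corrects for transcript length), over gene-centred log2 values across genes averaging 10 CPM or more. In none of the 3 untreated ATF4KO libraries was that so. The first matched its own TPM column at r = 0.915 and TPM column 2 of the group at 0.919, and the second its own at 0.933 and TPM column 1 at 0.960. The third matched its own TPM column at r = 0.498 and TPM column 2 at 0.966. Results of single members are therefore also given from TPM where their call differs there, while the lists of other genes were not refitted from TPM.

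Compared per length, by deposited TPM in untreated WT, XBP1 was the most abundant member at 101 ± 2.96 TPM, followed by MBTPS1 at 83.4 ± 3.00 (SD, n = 3). CREB3 stood at 53.5, ATF6B at 39.3 and ATF6 at 13.9 TPM. The least abundant were CREB3L1 at 11.6, ERN1 at 11.3, CREB3L2 at 9.96 and MBTPS2 at 5.56 TPM. The 2 direct sensors ERN1 and ATF6 were thus present at a lower level per length than the XBP1 transcript that IRE1 acts on.

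Total XBP1 mRNA rose in WT cells and fell in ATF4KO cells, at every time sampled. In WT cells the 3 untreated libraries held 112, 107 and 106 CPM. They held 142, 150 and 164 CPM at 2 h, 278, 261 and 266 CPM at 4 h and 303, 322 and 330 CPM at 8 h. At 16 h the WT libraries stood at 272, 277 and 273 CPM and at 24 h at 293, 297 and 304 CPM. The level thus reached its highest mean, 318 ± 14 CPM (SD, n = 3), at 8 h, and the 8 h and 24 h libraries overlapped. The log2 change was 0.49 ± 0.05 at 2 h (adjusted p = 7.18e-11). It was 1.31 ± 0.05 at 4 h, 1.55 ± 0.05 at 8 h (adjusted p = 5.82e-29), 1.34 ± 0.04 at 16 h and 1.45 ± 0.04 at 24 h. The 8 h change is 2.93-fold.

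In ATF4KO cells XBP1 started at 87.3, 95.0 and 94.6 CPM. It stood at 75.2, 73.0 and 68.8 CPM at 2 h, at 54.4, 62.9 and 65.4 at 4 h and at 54.0, 57.0 and 59.1 at 8 h. The later values were 61.5, 69.9 and 61.3 CPM at 16 h and 65.3, 64.7 and 67.3 at 24 h. No treated ATF4KO library reached the lowest untreated one, and the 8 h libraries, the lowest, overlapped those of 4 h but lay below all of 16 h and 24 h. At 2 h the log2 change was −0.36 ± 0.06, with an adjusted p of 5.58e-06. At 8 h it was −0.70 ± 0.06 (adjusted p = 1.99e-14), and −0.49 ± 0.05 remained at 24 h (adjusted p = 1.61e-10). With limma on log2(TPM + 1) of every column, 4 of the falls at 5 times failed the threshold, and the 24 h change was −0.21 (adjusted p = 0.219). Without the third untreated ATF4KO column all 5 passed, and the 24 h change was −0.54 (adjusted p = 7.02e-08).

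Every WT library held more XBP1 mRNA than every ATF4KO library, untreated ones included. ATF4KO stood below WT by 0.23 ± 0.05 on the log2 scale at 0 h (1.17-fold, adjusted p = 0.000563), and this gap was 2.15 ± 0.05 at 4 h (4.44-fold) and 2.49 ± 0.05 at 8 h (5.61-fold, adjusted p = 8.45e-35). At 24 h it was 2.18 ± 0.05 (4.52-fold). The gaps at 4 h to 24 h use no untreated library. In order of mean XBP1 level the groups ran from WT at 8, 24, 16, 4, 2 and 0 h to ATF4KO at 0, 2, 24, 16, 4 and 8 h, and 5 of the 11 neighbouring pairs overlapped: WT at 8 and 24 h, WT at 16 and 4 h, and the last 4 ATF4KO groups in sequence. The change in ATF4KO minus the change in WT, which tests the difference itself, was −0.84 ± 0.07 at 2 h (adjusted p = 1.38e-10). It was −2.26 ± 0.07 by 8 h (adjusted p = 5.68e-26), and stood at −1.95 ± 0.07 by 24 h (adjusted p = 1.45e-24). In limma on log2(TPM + 1) the 2 h difference failed the threshold when every column was used (−0.56, adjusted p = 0.559), and passed without the third untreated ATF4KO column (−0.90, adjusted p = 8.05e-07). In bulk RNA, fewer cells with a transcript and less of it per cell cannot be told apart.

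**Figure D1:**
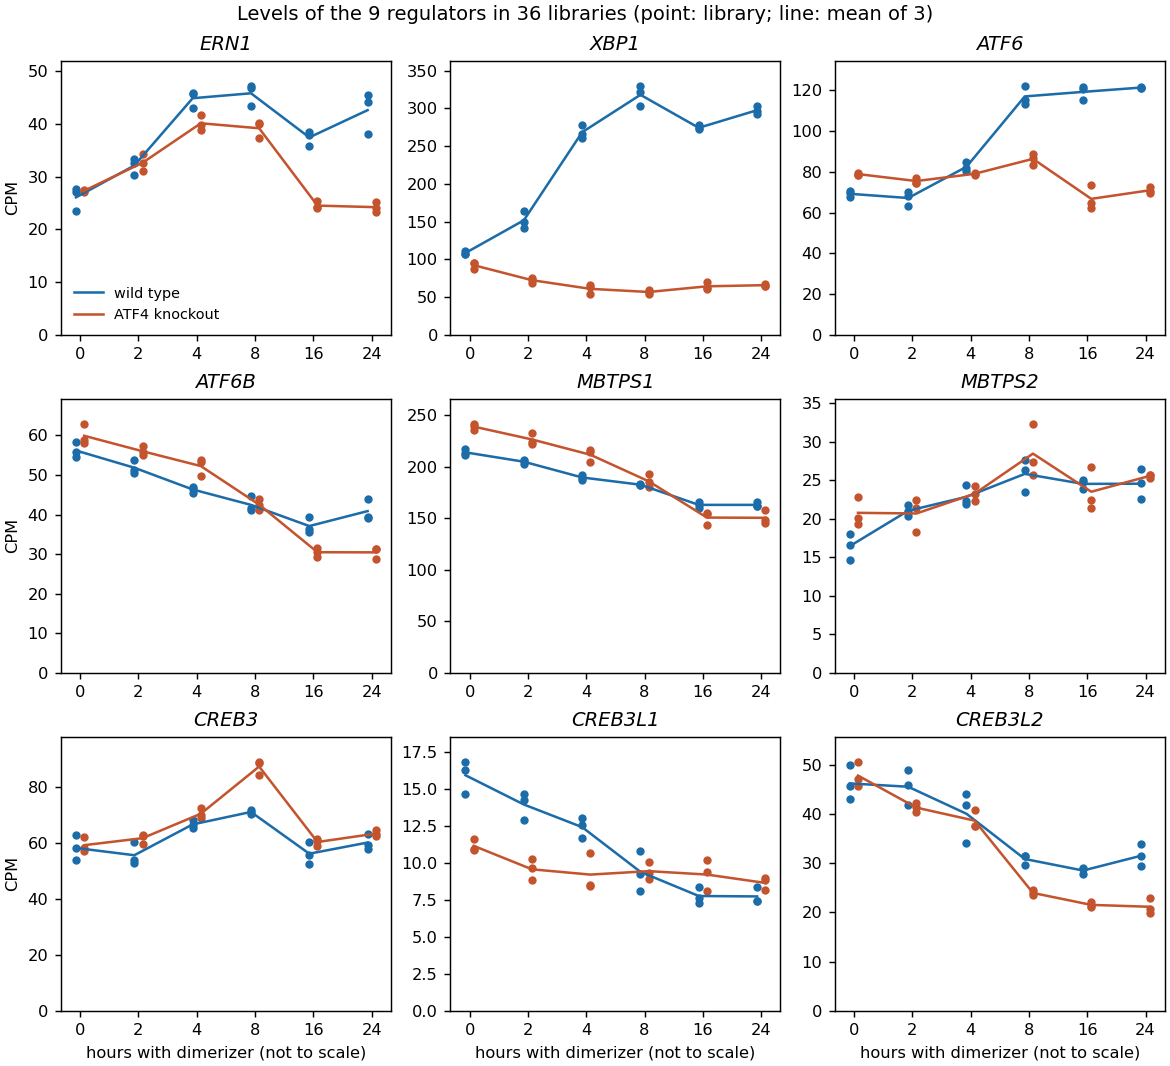
Level of each of the 9 regulators in CPM (y axis, from 0) against hours with dimerizer (x axis, not to scale); points are single libraries, lines join the means of 3, blue is WT and orange ATF4KO. XBP1 climbs to 318 CPM in WT at 8 h and stands at 56.7 CPM in ATF4KO at the same time, while CREB3 is highest in ATF4KO at 8 h.

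ERN1, the gene of IRE1 itself, stood above its untreated level in both genotypes from 2 h to 8 h, and from 16 h on only in WT. At 4 h and 8 h every ATF4KO library was already below every WT library of the same time. The log2 gap, ATF4KO against WT, was −0.163 at 4 h, called in 5 of 13 alternative fits. At 8 h it was −0.225, called in 11 of 13. WT libraries went from 27.1, 23.5 and 27.6 CPM untreated to 45.9, 45.8 and 43.0 CPM at 4 h. They stood at 47.2, 46.8 and 43.5 CPM at 8 h, at 37.9, 38.5 and 35.9 at 16 h and at 45.5, 44.2 and 38.2 at 24 h. The ATF4KO libraries held 27.1, 27.3 and 27.5 CPM untreated and 40.0, 40.2 and 37.3 CPM at 8 h. They stood at 38.9, 39.7 and 41.8 CPM at 4 h and were back at 24.0, 25.3 and 24.2 CPM at 16 h and 23.4, 25.2 and 24.0 CPM at 24 h, below every treated WT library. The 2 h libraries, 30.3 to 33.3 CPM in WT and 31.1 to 34.3 CPM in ATF4KO, overlapped between genotypes. The WT rise at 2 h was 0.29 (adjusted p = 0.00042), and with log2(TPM + 1) it was 0.32 and did not pass (adjusted p = 0.366).

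ERN1 changed by 0.80 ± 0.06 on the log2 scale in WT at 8 h (1.74-fold, adjusted p = 1.13e-14). At 24 h the WT change was 0.71 ± 0.06 (adjusted p = 2.42e-13). In ATF4KO it changed by 0.52 ± 0.06 at 8 h (adjusted p = 1.78e-09), while its 24 h change was −0.17 ± 0.07 (adjusted p = 0.0239). The direct comparison at 24 h put ATF4KO below WT by 0.82 ± 0.06 (1.77-fold, adjusted p = 2.08e-14). The difference between the 2 changes was −0.05 ± 0.09 at 2 h (adjusted p = 0.957) and −0.22 ± 0.09 by 4 h (adjusted p = 0.238). It passed at 8 h, where it was −0.28 ± 0.09 (adjusted p = 0.0206), and reached −0.88 ± 0.09 by 24 h (adjusted p = 2.53e-10). The small falls of ATF4KO at 16 h and 24 h and the 8 h difference had the opposite sign in TPM with all columns, without passing (0.20, 0.21 and 0.16). The 16 h fall (adjusted p = 0.0398) was lost without any 1 untreated ATF4KO library (adjusted p = 0.0642, 0.0722 and 0.111) or the first or the third of 16 h (adjusted p = 0.164 and 0.0834). The 24 h fall was lost without the second or the third untreated ATF4KO library (adjusted p = 0.0509 and 0.0843) or the first of 24 h (adjusted p = 0.0782). The 8 h difference was lost without the third untreated or the third 8 h ATF4KO library (adjusted p = 0.0589 and 0.0748) or the second 8 h WT library (adjusted p = 0.0533). The 16 h and 24 h differences were −0.09 (adjusted p = 0.886) and −0.40 (adjusted p = 0.364) with all TPM columns, and −0.40 (adjusted p = 0.229) and −0.70 (adjusted p = 0.0166) without the third untreated ATF4KO column.

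ATF6, the second sensor, rose later than XBP1 and ERN1, and was higher with dimerizer mainly in WT. Untreated WT libraries held 70.4, 69.4 and 67.8 CPM, and at 2 h they held 70.1, 68.1 and 63.1 CPM, which overlap. They reached 80.6, 84.8 and 82.0 CPM at 4 h, 122, 115 and 113 CPM at 8 h, 120, 122 and 115 CPM at 16 h and 121, 121 and 122 CPM at 24 h. From 8 h on the WT libraries overlapped, so the level no longer moved beyond their spread. In ATF4KO the untreated libraries held 78.7, 79.6 and 78.3 CPM, above the untreated WT ones. They held 74.5, 74.7 and 77.2 CPM at 2 h and 78.7, 79.1 and 79.3 CPM at 4 h. The later libraries held 83.4, 88.8 and 86.8 CPM at 8 h, 73.3, 62.2 and 64.7 CPM at 16 h and 69.6, 72.4 and 70.7 CPM at 24 h.

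The log2 change of ATF6 in WT was −0.05 ± 0.04 at 2 h (adjusted p = 0.502) and 0.25 ± 0.05 by 4 h (adjusted p = 1.25e-05). It rose to 0.75 ± 0.04 by 8 h (adjusted p = 3.85e-19), and was 0.81 ± 0.04 at 24 h (1.75-fold, adjusted p = 9.99e-21). In ATF4KO it was 0.13 ± 0.04 at 8 h (adjusted p = 0.00767), which did not pass without the second 8 h library (0.08, adjusted p = 0.143) or with log2(TPM + 1) (0.06, adjusted p = 0.534), and −0.15 ± 0.04 at 24 h (adjusted p = 0.00259). ATF4KO stood above WT by 0.19 ± 0.04 untreated (adjusted p = 0.00108; 0.20 and adjusted p = 0.133 with log2(TPM + 1)) and below it by 0.77 ± 0.04 at 24 h (1.71-fold, adjusted p = 2.25e-19). The difference between the changes was −0.62 ± 0.06 at 8 h (adjusted p = 8.48e-11), −1.01 ± 0.06 at 16 h and −0.96 ± 0.06 at 24 h (adjusted p = 1.01e-16). At 4 h it was −0.25 ± 0.06 (adjusted p = 0.0153), and this call was lost without the third untreated WT library (adjusted p = 0.0552), without the second WT library of 4 h (adjusted p = 0.0589) and in TPM (adjusted p = 0.34).

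ATF6B, the paralogue that is a weaker activator than ATF6, moved the opposite way in WT. Its WT libraries fell from 54.5, 55.8 and 58.3 CPM to 43.9, 39.5 and 39.2 CPM at 24 h. The ATF4KO libraries fell from 58.8, 62.9 and 58.0 CPM to 28.7, 31.4 and 31.2 CPM, below every WT library of 24 h. The log2 change at 24 h was −0.46 ± 0.05 in WT (adjusted p = 1.92e-10) and −0.97 ± 0.05 in ATF4KO (adjusted p = 6.68e-20), with a difference of −0.51 ± 0.07 (adjusted p = 4.63e-07). In TPM without the third untreated ATF4KO column this difference was −0.40 (adjusted p = 0.0533). ATF6B shares 2347 bases of its locus and strand with AL662884.2 and 71 with TNXB, and how many reads fall there was not analysed. The paralogues parted in WT, where at 24 h ATF6 stood 1.75-fold above and ATF6B 1.37-fold below the untreated level, while both were lower at 24 h in ATF4KO.

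The 2 proteases also moved in opposite directions. MBTPS1, the first cut, fell from 211, 213 and 217 CPM to 162, 161 and 165 CPM at 24 h in WT, and from 236, 239 and 241 CPM to 158, 148 and 146 CPM in ATF4KO. Its log2 change at 24 h was −0.39 ± 0.03 in WT (adjusted p = 1.47e-14) and −0.67 ± 0.03 in ATF4KO (adjusted p = 3.04e-22). The difference of −0.28 ± 0.04 passed (adjusted p = 2.78e-06), but not in TPM with all columns (−0.17, adjusted p = 0.185). ATF4KO began above WT, by 0.16 ± 0.03 untreated (adjusted p = 6.07e-05; 0.05 and adjusted p = 0.656 in TPM), and ended below it, by 0.12 ± 0.03 at 24 h (adjusted p = 0.00339), a gap that was 0.10 (adjusted p = 0.0893) with no filter on low counts and 0.11 (adjusted p = 0.162) in TPM.

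MBTPS2, the second cut, rose. WT libraries went from 16.7, 14.7 and 18.1 CPM to 23.5, 27.7 and 26.4 CPM at 8 h and 26.5, 24.7 and 22.6 CPM at 24 h. In ATF4KO they went from 22.9, 20.1 and 19.4 CPM to 25.8, 32.3 and 27.4 CPM at 8 h and 25.4, 25.7 and 25.7 CPM at 24 h. The 2 courses therefore began from unequal levels, with every untreated ATF4KO library above every untreated WT one. That log2 gap, ATF4KO against WT, was 0.31 at 0 h (called in 9 of 14 alternative fits) and −0.07 at 16 h. The log2 change at 24 h was 0.57 ± 0.09 in WT (adjusted p = 4.41e-07) and 0.31 ± 0.09 in ATF4KO (adjusted p = 0.00143; 0.26 and adjusted p = 0.055 in TPM without the third untreated column). Between genotypes the libraries overlapped at every time with dimerizer, and the difference between changes passed only at 16 h (−0.38 ± 0.12, adjusted p = 0.0183), where it was lost in TPM (adjusted p = 0.133) and without 1 of 3 ATF4KO libraries, the first untreated one (adjusted p = 0.0542) or the first or the third of 16 h (adjusted p = 0.0655 and 0.0544). MBTPS2 shares part of its locus and strand with YY2, which had 596.3 counts over all libraries against 9898.4 for MBTPS2.

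CREB3 rose for a short time only, and more in ATF4KO. Its WT libraries held 58.2, 53.9 and 62.8 CPM untreated and 71.0, 72.0 and 70.6 CPM at 8 h, and were back within the untreated range at 16 h, except the lowest at 52.4 CPM. The ATF4KO libraries held 57.4, 62.1 and 58.4 CPM untreated and 84.6, 88.7 and 89.1 CPM at 8 h, above every other library. The log2 change at 8 h was 0.28 ± 0.05 in WT (adjusted p = 8.47e-06) and 0.56 ± 0.05 in ATF4KO (adjusted p = 2.71e-13), with a difference of 0.28 ± 0.07 (adjusted p = 0.00356; 0.23 and adjusted p = 0.0695 in TPM without the third untreated ATF4KO column). At 24 h the changes were 0.04 ± 0.05 and 0.10 ± 0.05 and did not pass. CREB3 overlaps GBA2 by 139 bases and TLN1 by 61 bases, both on the other strand. No source used here says whether counting used the strand, so a part of these reads cannot be told apart from GBA2 or TLN1.

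CREB3L1 and CREB3L2, which are known for driving secretion and collagen output in bone and cartilage cells, both fell. CREB3L1 had the lowest counts of the 9. Its WT libraries fell from 14.7, 16.8 and 16.3 CPM to 7.42, 7.42 and 8.38 CPM at 24 h, and its ATF4KO libraries went from 10.9, 11.7 and 10.9 CPM to 8.84, 8.96 and 8.15 CPM. Untreated ATF4KO therefore already stood below untreated WT, by 0.51 ± 0.09 (adjusted p = 4.71e-05; adjusted p = 0.689 in TPM and 0.0687 without the third column). The log2 change at 24 h was −1.04 ± 0.10 in WT (2.06-fold lower, adjusted p = 4.77e-12) and −0.37 ± 0.10 in ATF4KO (adjusted p = 0.00203). The difference of 0.67 ± 0.15 (adjusted p = 0.000333) was the only one of the 24 h differences above 0 that passed, and in TPM it did not (0.27, adjusted p = 0.607). At 24 h itself the genotypes overlapped (0.17 ± 0.11, adjusted p = 0.277).

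CREB3L2 fell more in ATF4KO than in WT, while the fall of CREB3L1 was larger in WT. The WT libraries fell from 45.6, 43.0 and 50.0 CPM to 29.3, 33.8 and 31.4 CPM at 24 h, and the ATF4KO libraries from 45.7, 50.5 and 47.1 CPM to 23.0, 20.6 and 19.8 CPM. Untreated libraries overlapped between genotypes, and from 8 h on every ATF4KO library was below every WT library of the same time. The log2 change at 24 h was −0.55 ± 0.07 in WT (adjusted p = 2.73e-09) and −1.19 ± 0.07 in ATF4KO (2.28-fold lower, adjusted p = 3.69e-18), and the difference was −0.63 ± 0.10 (adjusted p = 3.11e-06). The differences at 8 h (−0.41 ± 0.10) and 16 h (−0.44 ± 0.10) did not pass in TPM (adjusted p = 0.15 and 0.225).

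Ordered by mean level over the 12 groups, most neighbours could not be separated. Their libraries overlapped in 9 of 11 neighbouring pairs for ERN1, MBTPS2 and CREB3L1, 8 for CREB3, 7 for ATF6, ATF6B and CREB3L2 and 6 for MBTPS1. The highest mean was in treated WT for XBP1, ERN1 (both at 8 h) and ATF6 (at 24 h), in untreated ATF4KO for ATF6B, MBTPS1 and CREB3L2, in ATF4KO at 8 h for MBTPS2 and CREB3, and in untreated WT for CREB3L1.

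**Figure D2:**
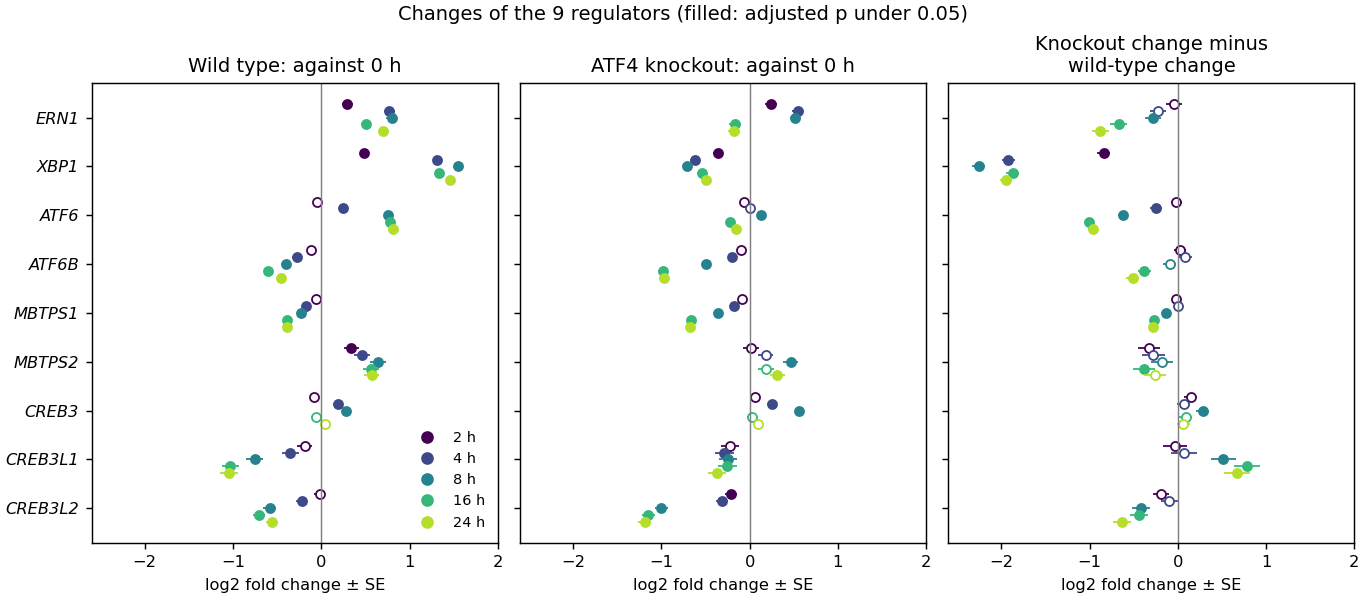
Log2 fold change ± SE (x axis) of each regulator at 5 times, in WT against 0 h (left), in ATF4KO against 0 h (middle) and as the ATF4KO change minus the WT change (right); filled points have an adjusted p under 0.05. XBP1 lies right of 0 in WT, up to 1.55, and left of 0 in ATF4KO, down to −0.70, and its difference reaches −2.26.

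Counted together, 5 of the 9 members were higher and 4 lower at 8 h in WT, where 59.3% of all tested genes were called. At 4 h the split was also 5 and 4 (background 44.7%), and limma on log2(TPM + 1) called 4 in place of 9. At 2 h XBP1, ERN1 and MBTPS2 were higher and none was lower (22.6%), with ERN1 lost in TPM. Both of the later times had 4 higher and 4 lower (66.5% of all genes called at 16 h, 65.4% at 24 h). In ATF4KO 1 was higher and 2 lower at 2 h (18.3%). The 4 h split was 2 higher and 5 lower (42.4%; 3 called in TPM), that of 8 h 4 higher and 5 lower (61.9%). None was higher at 16 h, with 7 lower (65.7%), while at 24 h 1 was higher and 7 lower (65.4%). With this many genes called, a member's call alone does not set it apart, and the sizes above are the description.

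The test of the difference between genotypes called fewer genes. At 2 h XBP1 was the one member that passed, among 0.299% of all genes, and at 4 h XBP1 and ATF6 passed (3.28%). At 8 h 2 members had a higher and 5 a lower change in ATF4KO (background 18.3%), at 16 h 1 and 7 (27.7%) and at 24 h 1 and 6 (29.8%). Lower calls made up 12.1% of all genes at 24 h, against 6 of 9 members. With log2(TPM + 1) the members called were 3 at 8 h, 3 at 16 h and 4 at 24 h. Between the genotypes at one time, 3 members were higher and 2 lower in ATF4KO untreated (23.5%; 1 called in TPM). At 2 h 3 were higher and 2 lower (21.5%; 2 called in TPM, and 3 without the third WT library), at 4 h 2 higher and 3 lower (27.1%; 2 in TPM, and 3 without the first ATF4KO library), at 8 h 1 higher and 4 lower (34.6%; 3 in TPM). None was higher and 6 were lower at 16 h (36.2% in either direction, and 3 members called in TPM) and at 24 h (38.1%). Of all 19043 tested genes, 2804 were lower at 16 h and 2979 at 24 h. The comparisons against 0 h within a genotype share their untreated libraries, and so do the differences between genotypes, so those counts are not independent of each other.

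Genes attributed to ATF6, 14 chaperones and degradation factors of the ER, did not rise as a group with the ATF6 transcript. At 2 h 13 of 14 fell in WT, where 10.4% of all tested genes were lower, and 14 of 14 in ATF4KO, where 8.5% were. At 24 h in WT 5 were higher and 8 lower, with a median of −0.17, against 33% higher, 32.4% lower and a median of −0.02 over all tested genes. HSPA5 rose by 0.73 ± 0.03 (from 722 to 1196 CPM), SEL1L, a subunit of the degradation ligase, by 0.79 ± 0.03 and HYOU1, a large chaperone, by 0.63 ± 0.03. HSP90B1 (GRP94) fell by 0.65 ± 0.02 and PDIA4, a disulfide isomerase, by 0.87 ± 0.04. In WT the members of this list thus split, with BiP and the degradation factor SEL1L on one side and GRP94 and PDIA4 on the other.

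In ATF4KO at 24 h 13 of the 14 were lower and 1, the lectin chaperone CANX, was higher (0.16 ± 0.03), with a median of −0.68, against 33% lower, 32.4% higher and a median of −0.03 over all tested genes. HSPA5 fell by 1.12 ± 0.03 (from 636 to 292 CPM), HERPUD1 by 2.06 ± 0.05 and HSP90B1 by 1.19 ± 0.02. All 14 were called below WT at 24 h, with a median of −0.40. Of all 19043 tested genes, 2979 were lower in that comparison and 4270 higher. The difference between the changes was below 0 and passed for 12 of 14 (12.1% of all genes). It was −2.40 ± 0.06 for HERPUD1, −1.85 ± 0.04 for HSPA5, −1.37 ± 0.05 for SEL1L and −1.02 ± 0.04 for HYOU1. The list was chosen with earlier results of these data known and is not independent evidence of a direction.

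Genes attributed to XBP1s, 15 genes of protein translocation, folding and degradation, had 8 higher and 4 lower members at 24 h in WT (median 0.18; 33% of all genes were higher and 32.4% lower). GFPT1, the first enzyme of the hexosamine pathway, rose by 1.28 ± 0.03 (from 146 to 354 CPM), SRPRB, a subunit of the signal recognition particle receptor, by 1.03 ± 0.06 and HSPA13 by 0.86 ± 0.05. KDELR3, a receptor that returns ER proteins from the Golgi, fell by 2.05 ± 0.08. At 2 h, when XBP1 mRNA was already higher, 1 of the 15 was higher and 7 were lower (10.4% of all genes), among them DNAJB9 (ERdj4) at −0.51 ± 0.09. In ATF4KO at 24 h 2 were higher and 10 lower (median −0.24; 32.4% and 33% of all genes), and EDEM1, a degradation factor for misfolded glycoproteins, fell by 0.83 ± 0.05. The difference between the changes passed below 0 for 12 and above 0 for 2 of 15 (29.8% of all genes in either direction), with GFPT1 at −1.42 ± 0.05, HSPA13 at −1.15 ± 0.07 and DNAJB9 at −0.89 ± 0.12, and with KDELR3 at 0.33 ± 0.12.

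**Figure D3:**
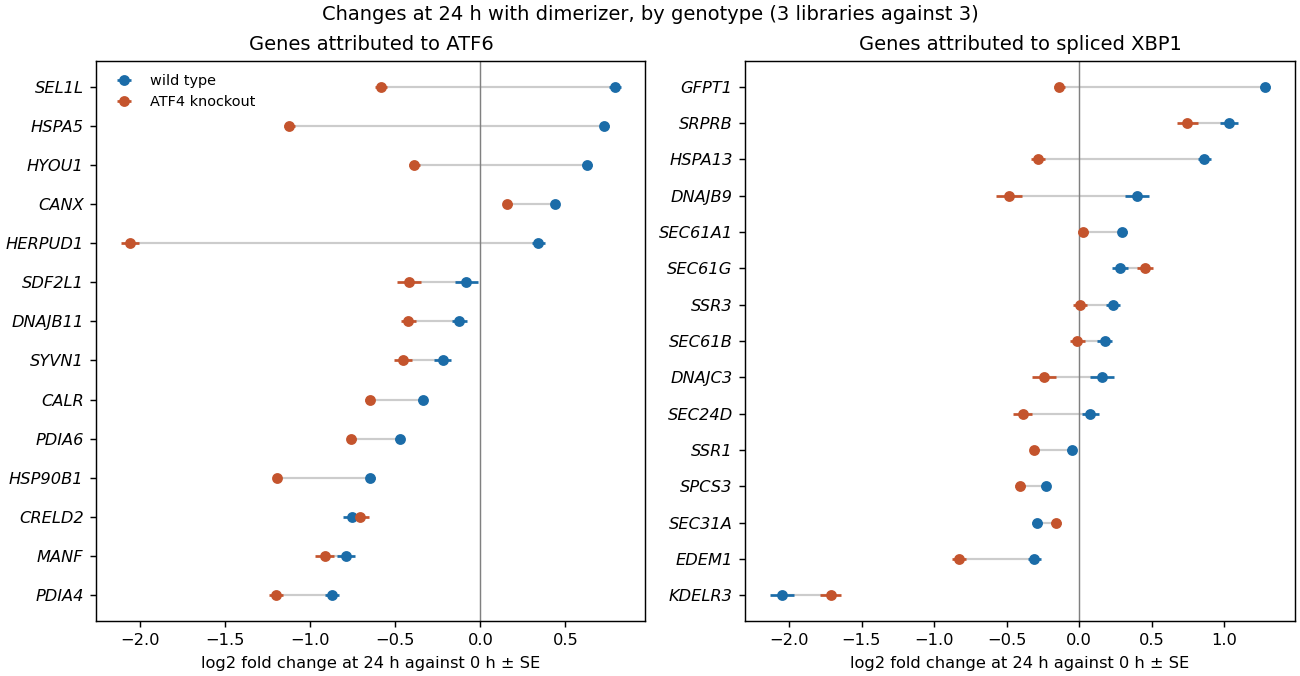
Log2 fold change ± SE at 24 h against 0 h (x axis) of the 14 genes attributed to ATF6 (left) and the 15 attributed to spliced XBP1 (right), with WT in blue, ATF4KO in orange and a grey line joining the pair. HERPUD1 has the longest line, from 0.34 to −2.06, and KDELR3 is below −1.7 in both genotypes.

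Of 14 such ATF6-attributed genes, 6 held the ERSE in a promoter window (CALR, CANX, CRELD2, HSP90B1, HSPA5 and PDIA6) and 3 others the ERSE-II (HERPUD1, HYOU1 and SDF2L1), as XBP1 holds the ERSE shown above. Genes with the same letters moved in both directions in WT at 24 h: XBP1 rose by 1.45 ± 0.04 and HSPA5 by 0.73 ± 0.03, while HSP90B1 fell by 0.65 ± 0.02. None of the 14 genes attributed to XBP1s that had a window held either element. The UPRE (0.729% of all windows) was in the windows of KDELR3 and SSR3 among them, and in that of HYOU1. The CARE (3.62%) was in the window of SRPRB among them, and in that of HERPUD1. In ATF4KO XBP1, HSPA5 and HERPUD1 all fell.

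**Figure D4:**
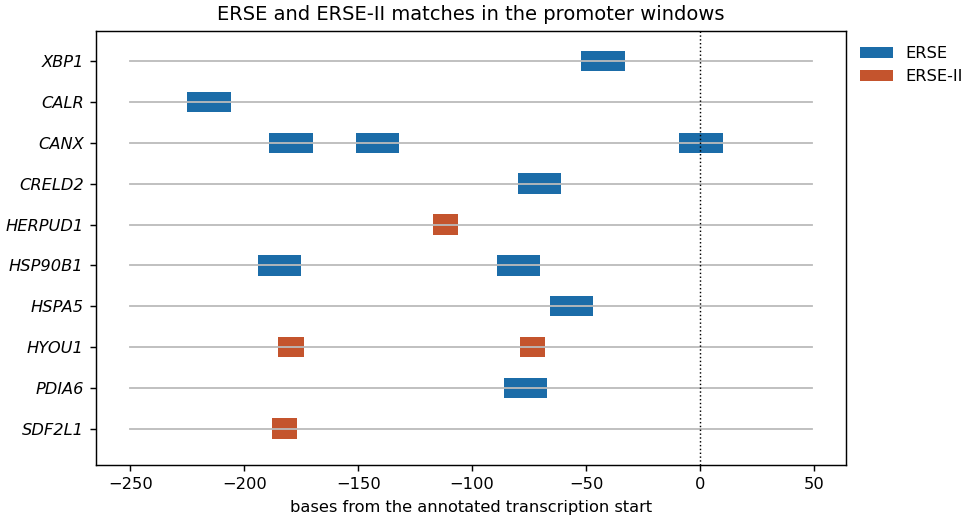
Position of each ERSE (blue) and ERSE-II (orange) match in the promoter windows of XBP1 and of the ATF6-attributed genes that hold one, in bases from the annotated transcription start (x axis; dotted line, start). The XBP1 match begins at −52 and the HSPA5 match at −66.

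Most components that act with IRE1 were higher at 24 h in both genotypes. Of 8 tested (ERN2, the paralogue of gut epithelium, did not pass the filter), 7 were higher in WT (median 0.37; 33% of all genes) and 6 in ATF4KO (median 0.49; 32.4%), and none was called lower. RTCB, the ligase that joins the cut XBP1 ends, rose by 0.26 ± 0.04 in WT and 0.49 ± 0.04 in ATF4KO, and its partner DDX1 by 0.36 ± 0.04 and 0.76 ± 0.04. RTRAF, another subunit of that complex, rose by 0.44 ± 0.03 and 0.49 ± 0.03, and TRAF2, an adaptor that binds IRE1, by 0.56 ± 0.07 and 0.66 ± 0.06. The difference passed for DDX1 (0.41 ± 0.05) and RTCB (0.24 ± 0.05), both rising more in ATF4KO.

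Of 9 mRNAs reported as cut by IRE1 outside XBP1, 7 were lower and 1 higher at 24 h in WT (median −1.38; 32.4% of all genes were lower), and 8 and 1 in ATF4KO (median −0.97; 33%). Most of them encode matrix or surface proteins. The log2 changes in WT and ATF4KO were −1.60 ± 0.02 and −0.97 ± 0.02 for SPARC, −2.09 ± 0.05 and −1.32 ± 0.04 for COL6A1, −2.35 ± 0.05 and −2.43 ± 0.06 for SCARA3, and −1.90 ± 0.07 and −2.46 ± 0.07 for PDGFRB. TNFRSF10B (DR5) rose in WT by 0.91 ± 0.04. BLOC1S1, often used as the reference transcript for this cleavage, rose by 0.17 ± 0.06 in ATF4KO (adjusted p = 0.019). SPARC and COL1A1 are also mesenchymal markers of this line, and the part of that wider change in these falls was not tested.

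The carriers and partners of ATF6 were called about as often as all genes in WT. Of 17 genes of the COPII coat, redox partners and NF-Y and YY1, 5 were higher and 7 lower at 24 h in WT (median near 0; 65.4% of all genes called), and 6 and 10 in ATF4KO (65.4%). The coat subunit SEC23A fell by 0.59 ± 0.04 in WT and its paralogue SEC23B rose by 0.37 ± 0.05. TXNDC12 fell in ATF4KO by 0.67 ± 0.05, with a difference of −0.77 ± 0.07. SEC24D and SEC31A stand in this list and in that of XBP1s.

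Other substrates and partners of the 2 proteases mostly fell. At 24 h 5 of 6 tested were lower in WT (32.4% of all genes) and 5 in ATF4KO (33%), and 1 was higher in each. SREBF2, the sterol-regulated factor cut by the same proteases, fell by 1.28 ± 0.03 in WT and 1.41 ± 0.03 in ATF4KO, GNPTAB by 0.94 ± 0.06 and 0.88 ± 0.06 and SPRING1, a cofactor of the site-1 protease, by 0.46 ± 0.04 and 0.44 ± 0.04. SREBF1 fell by 0.26 ± 0.04 in WT and 0.72 ± 0.04 in ATF4KO, with a difference of −0.46 ± 0.06. SCAP, which carries both sterol factors to the Golgi, was the one that rose (0.22 ± 0.05 and 0.26 ± 0.04). Of 5 genes attributed to CREB3 or its paralogues, 3 were lower in WT and 4 in ATF4KO (32.4% and 33% of all genes), and none was higher. COL1A1 fell by 2.15 ± 0.04 and 1.52 ± 0.04. COL1A2, 1 of the 3 lower in WT, went from 0.77 to 0.05 CPM, close to the floor. SEC23A and SEC24D stand in this list and in that of the ATF6 carriers.

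Across the 36 libraries the 3 genes whose log2 CPM was most like that of XBP1, among 10521 others with a mean of at least 10 CPM, were INPP5B (Pearson r = 0.983), PSAT1, an enzyme of serine synthesis (r = 0.982), and SLC1A4, a neutral amino acid transporter (r = 0.981). PSAT1 went from 30.3 to 154 CPM in WT at 8 h and from 12.3 to 6.04 CPM in ATF4KO. For ERN1 they were TNFRSF10B (r = 0.940), SERPINB8 (r = 0.930) and KDM7A (r = 0.930). For ATF6 they were MAP1LC3B, a core autophagy gene (r = 0.936), RAB3GAP1 (r = 0.934) and SLC22A15 (r = 0.933). These values describe 12 groups of 3 wells that share cells and depth, and say nothing of a shared control.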

How the data were processed

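Total RNA of 36 wells (12 groups of 3) was sequenced from directional libraries. The authors deposited expected counts and TPM per gene; per the submitters' processing notes, FastQC 0.11.5, Salmon 0.9.1 and GRCh38 were used. Annotation, strand setting and the step from transcripts to genes are not given in the sources used here. In each library 72 to 78.9% of values were whole (tolerance 1e-06), so the deposited expected counts were rounded. They were filtered with filterByExpr, scaled by TMM and tested with edgeR 4.0.16 (R 4.3.3, quasi-likelihood), 12 group means, 21 contrasts, Benjamini-Hochberg over 19043 genes within a contrast. Deposited TPM was used for levels per length and in limma 3.58.1; DESeq2 1.42.0 was an alternative. For group comparisons every library keeps its labelled group.

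The members and lists were chosen with earlier results of these data known. Named genes were all 9 members; in a list, up to 4 genes with the smallest adjusted p and up to 3 called against the majority; and the 3 genes most like XBP1, ERN1 and ATF6. Replicate numbers were checked for pairing: in 1 of 21 contrasts (ATF4KO against WT at 4 h) all same-numbered pairs correlated above 0.1, at 0.139 to 0.164. Gene identifiers matched GENCODE 29 with their version for all members but ATF6B. Positions are GENCODE 29 (GRCh38); promoters are RefSeq (GRCh38.p14). The edgeR test was also run on counts simulated from its own fitted spread, with known changes in WT at 8 h only. Such counts cannot show how the test does where the real spread differs from the fitted one.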

Additional observations from a re-analysis of the deposited data

Results flagged for a closer look

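For 25 of the 45 member and time pairs, the change with dimerizer differed between ATF4KO and WT by the direct test (edgeR, adjusted p under 0.05), and 11 of the 25 also passed in limma on log2(TPM + 1). Each value is the log2 change in ATF4KO minus that in WT. XBP1 differed at all 5 times, by −0.84 at 2 h, −1.92 at 4 h, −2.26 at 8 h, −1.87 at 16 h and −1.95 at 24 h. ATF6 differed by −0.25 at 4 h, −0.62 at 8 h, −1.01 at 16 h and −0.96 at 24 h. ERN1 differed by −0.28 at 8 h, −0.67 at 16 h and −0.88 at 24 h. CREB3L2 differed by −0.41, −0.44 and −0.63 at 8, 16 and 24 h, and MBTPS1 by −0.13, −0.27 and −0.28 at the same times. ATF6B differed by −0.38 at 16 h and −0.51 at 24 h, and MBTPS2 by −0.38 at 16 h. The values above 0 were those of CREB3L1, at 0.52, 0.78 and 0.67 at 8, 16 and 24 h, and of CREB3 at 8 h, at 0.28. None of the ERN1, CREB3L1 and MBTPS1 values passed in limma on log2(TPM + 1) with all columns at 8, 16 or 24 h. The others that failed there were XBP1 at 2 h, ATF6 at 4 h, CREB3L2 at 8 and 16 h and MBTPS2 at 16 h.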

How the results depend on the processing

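RLE scaling and the fit with the replicate number as a block left all 189 member calls on their side of the threshold; with the replicate block the members called were, for example, 9 in WT at 8 h and 7 for the difference at 24 h, as without it. For 26 of 36 libraries, the mean correlation with libraries of the other groups was highest for their own of the 3 replicate numbers. DESeq2 left 178 results on their side of the threshold and lost 5 calls. It gave no adjusted p for the 2 h differences of ERN1, ATF6B, MBTPS2, CREB3, CREB3L1 and CREB3L2. With no filter on low counts 10 calls were lost, and with a fit of only the compared groups 3. Leaving out 1 library at a time lost 58 and gained 9 of 1404. The deposited TPM moved most, and why was not tested: of 128 calls 44 were lost and 6 turned sign at either pseudocount, and 1 was gained. Over the 64 calls that use untreated ATF4KO, 24 were lost and 5 turned sign with all TPM columns at a pseudocount of 1, and 28 were lost with TPM columns 1 and 2 of that group, an alternative chosen after seeing the data. Counted over all alternatives, another 85 values that were not called turned sign, and they came from 27 results.

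The 6 that turned sign, with a pseudocount of 1 and of 0.1, were ERN1 in ATF4KO at 16 h (0.20 and 0.22) and 24 h (0.21 and 0.24), ERN1 for the difference at 8 h (0.16 and 0.19), and MBTPS1 in ATF4KO at 4 h (0.034 and 0.0344), in ATF4KO against WT at 16 h (0.0811 and 0.0822) and for the difference at 16 h (0.0281 and 0.0287). With TPM at either pseudocount the members called went from 9 to 4 in WT at 4 h and from 7 to 3 in ATF4KO at 4 h. For ATF4KO against WT they went from 5 to 1 at 0 h, 5 to 2 at 2 h, 5 to 2 at 4 h, 5 to 3 at 8 h and 6 to 3 at 16 h. For the difference they went from 1 to 0 at 2 h, 2 to 1 at 4 h, 7 to 3 at 8 h, 8 to 3 at 16 h and 7 to 4 at 24 h. With TPM columns 1 and 2 of untreated ATF4KO they were 3 in ATF4KO at 4 h and 1 for ATF4KO against WT at 0 h, and 1, 2 and 3 for the difference at 4, 8 and 16 h. With no filter the difference at 4 h had 1.

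With 1 library left out, ATF4KO against WT had 3 to 6 members called at 2 h (3 without the third WT library) and 3 to 4 at 4 h (3 without the first ATF4KO library), and the difference at 4 h had 1 to 2. The 8 h difference of CREB3L1 was lost without the second ATF4KO library (adjusted p = 0.0543) or the third WT library (adjusted p = 0.101) of that time. That of MBTPS1 was lost without the third untreated (adjusted p = 0.0891) or first 8 h ATF4KO library (adjusted p = 0.067) or the second 8 h WT library (adjusted p = 0.0616). RLE scaling called 4 in place of 2 carriers and partners of ATF6 in WT at 2 h, and 1 in place of 0 IRE1 partners in ATF4KO at 2 h. Depth limits CREB3L1 most, at 69 to 232 counts a library.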
